A study of Homo sapiens with 4 samples.

Results

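The proteins described here detect double-stranded RNA inside the cell or act directly on it. They are the products of 9 genes, chosen by name: RIGI, IFIH1, DHX58, EIF2AK2, OAS1, OAS2, OAS3, ADAR and MAVS. All 9 were among the 14355 gene names listed, and all 9 were among the 10469 genes that passed the filter on low counts and were tested. Ribosome footprints, the RNA fragments that translating ribosomes protect from RNase, had been sequenced from Hermes 4B cells, established human melanocytes of genotype WT in the labels. Cells of the first group were transfected with an siRNA targeting CDH3-AS1, a noncoding transcript antisense to the P-cadherin gene CDH3, and cells of the second group with a control siRNA, at 25 to 50 nM and with the same reagent. All dishes were washed with cycloheximide, which halts elongating ribosomes, at 100 µg/mL on harvest. All libraries come from this 1 cell line. Each group had 2 libraries, replicate 1 in batch 1 and replicate 2 in batch 2. The series asks how CDH3-AS1 affects P-cadherin, and the question here is whether the RNA-sensing machinery was higher with the targeting siRNA. An siRNA is itself a short double-stranded RNA, and both groups received one, so neither is an untransfected baseline.

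RIG-I (RIGI) and MDA5 (IFIH1) are cytosolic helicases that bind double-stranded RNA and signal through MAVS, an adaptor on mitochondria, to induce interferon. LGP2 (DHX58) is a related helicase without the signalling domain and modulates both. PKR (EIF2AK2) phosphorylates the initiation factor eIF2α on binding double-stranded RNA and so lowers protein synthesis, the OAS enzymes make 2′-5′ oligoadenylates, which trigger RNA decay, and ADAR edits adenosine to inosine in double-stranded RNA, which keeps the cell's own RNA from being sensed. All but MAVS are known as interferon-induced genes, ADAR through one of its promoters.

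Libraries held 6759850 and 2858835 reads with CDH3-AS1 siRNA (replicates 1 and 2) and 2034854 and 5994485 reads with control siRNA. Levels are given as CPM, a gene's coding-sequence reads per 1000000 coding-sequence reads of the library, and 3 reads stood at between 0.473 and 1.63 CPM. The labels do not state whether cultures were separate. The p-values therefore reflect the spread between these 4 libraries alone, possibly a technical one, and the smallest two-sided p of an exact permutation test on 1 gene would be 1 in 3. Footprints count ribosomes on a gene's RNA, so more RNA and more ribosomes per RNA cannot be told apart, nor can fewer expressing cells and less RNA per cell. CDH3-AS1 itself was not analysed here, which leaves its knockdown unchecked. All 9 melanocyte markers had reads in every library, with a summed level of 21641 and 31902 CPM with CDH3-AS1 siRNA and 23422 and 40556 CPM with control siRNA. Control replicate 1 stood apart by skeletal muscle markers, 9 of 11 with reads and 3946 CPM in sum against 10.2 CPM or less in any other library, and by fibroblast markers, 492 CPM against 4.88 CPM or less. Of 6 leukocyte markers 3 had reads, in batch 1 alone, with a summed level of 4.88 and 0 CPM with CDH3-AS1 siRNA and 15.7 and 0 CPM with control siRNA, and PTPRC and CD3E were among those without reads. The part of these transcripts in the results was not tested, and values without that library are given.

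Promoters were examined first for what the members share beyond their function. The RefSeq promoter table (GRCh38.p14, 250 bases before to 50 after a gene's start) held 7 of the 9 genes, and DHX58 and OAS2 could not be searched. The letters GAAA, any 2 bases and GAAA again, the core of the interferon-stimulated response element to which interferon-activated factors bind, were searched on both strands. They were present in 3 of the 7 members, EIF2AK2, IFIH1 and OAS3, and in 1255 of all 35116 promoter windows (3.57%). The members were counted by gene, over 9 windows, and all promoters by window. The matches are shown because they separate members, with the matched letters in capitals and with the position of the first matched base in the gene's direction, relative to the start.
EIF2AK2 at -6: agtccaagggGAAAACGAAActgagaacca
IFIH1 at -21: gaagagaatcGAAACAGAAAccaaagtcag
IFIH1 at -153: gacaccgcggGAAACAGAAAaggaaagcga
OAS3 at -143: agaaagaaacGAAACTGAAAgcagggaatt
OAS3 at -12: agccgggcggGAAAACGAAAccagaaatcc
The first window is chr2:37156967-37156996 on the minus strand. The IFIH1 windows are chr2:162318686-162318715 on the minus strand and chr2:162318818-162318847 on the plus strand, where the match lies opposite to the gene, and another IFIH1 match at -159 overlaps the match at -153. The OAS3 windows are chr12:112938321-112938350 and chr12:112938452-112938481, both on the plus strand. EIF2AK2 and OAS3 share the same 10 matched letters next to their starts. The gamma-activated sequence, TTC, any 3 bases and GAA, searched on both strands, was found in 1 member, OAS1, and in 7.66% of all windows. A match describes letters only and shows no binding, and other forms of these elements were not searched for.

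The siRNAs were compared next. By edgeR's quasi-likelihood test without a covariate 0 of 9 members passed at an adjusted p of 0.05, as did 0 of 10469 genes (0.0%), with 0 members and 225 genes (2.15%) at an unadjusted p under 0.05. With the replicate number, which is the batch in the labels, as a block, 0 of 9 members passed, and 170 of all genes did (1.62%), 97 of them higher (0.927%) and 73 lower (0.697%). With the block 4 members, RIGI, IFIH1, DHX58 and OAS1, had an unadjusted p under 0.05, as did 9.79% of all genes. DESeq2 called 0 members with or without the block. The median log2 fold change of the members was 0.21 without the block and 0.32 with it, and that of all tested genes -0.03 and -0.01. Within the batches 5 members were higher in both and 1 was lower in both, and of all genes 26.5% were higher in both and 27.8% lower in both. The higher members were RIGI, IFIH1, DHX58, OAS1 and OAS2. OAS2 counts as higher in batch 1 only after TMM scaling (0.00 on the log2 scale), since its CPM there was 0.980 times the control's.

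**Figure D1:**
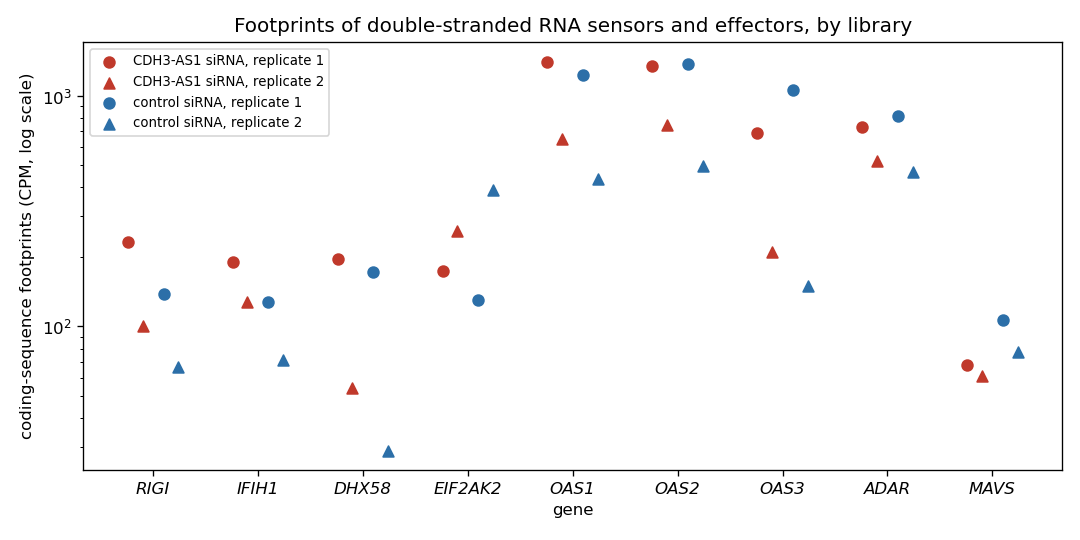
Coding-sequence footprints of the 9 genes in each library, in CPM on a log axis, with CDH3-AS1 siRNA in red left of control siRNA in blue, circles for replicate 1 and triangles for replicate 2. Every member except MAVS has overlapping groups, and in every member except EIF2AK2 the triangles lie below the circles of the same colour.

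Among the sensors, RIGI and IFIH1 had the largest fold changes of the 9. RIGI (chromosome 9, 32455302 to 32526196 on GRCh38.p14) had 232 and 100.0 CPM with CDH3-AS1 siRNA replicates 1 and 2, against 138 and 66.5 CPM with control siRNA. The level was higher with CDH3-AS1 siRNA in each batch, by 0.78 on the log2 scale in batch 1 and 0.64 in batch 2, while the batch 2 library of CDH3-AS1 siRNA lay below the batch 1 control, so the groups overlapped. The log2 fold change was 0.75 (SE 0.52) by edgeR's quasi-likelihood test (adjusted p = 1.00) and 0.71 (SE 0.26) with the replicate block (adjusted p = 0.195). With CDH3-AS1 siRNA replicate 1 left out it stood at 0.04, and with control replicate 1 left out at 1.38. The fits with 1 library left out had no block, and leaving out 1 library unbalances the batches.

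IFIH1 (chromosome 2, 162267074 to 162318684) had 190.4 and 127.2 CPM with CDH3-AS1 siRNA and 127.5 and 71.2 CPM with control siRNA. The groups met almost exactly, the lower CDH3-AS1 siRNA library against the higher control, and the level was 1.49 times the control in batch 1 and 1.79 times in batch 2. With the block its log2 fold change was 0.75 (SE 0.26, adjusted p = 0.150, edgeR), the smallest p of the 9. Leaving out 1 library moved the value from 0.72 with all libraries to between 0.38, without control replicate 2, and 1.22, without control replicate 1. Of all tested genes 4.37% were at least 0.5 (log2) higher within both batches, and RIGI and IFIH1 were the 2 members that were.

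DHX58 (chromosome 17, 42101411 to 42112714), the modulator, had 195 and 54.0 CPM with CDH3-AS1 siRNA and 173 and 29.0 CPM with control siRNA. Batch 2 was far below batch 1 with both siRNAs. Its log2 fold change was 0.55 (SE 0.27) with the block, with 0.21 within batch 1 and 0.94 within batch 2. Leaving out CDH3-AS1 siRNA replicate 1 gave -0.81, leaving out control replicate 2 gave -0.40, and leaving out control replicate 1 gave 2.16.

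MAVS, the adaptor below both sensors, ran the other way. MAVS (chromosome 20, 3846834 to 3876118) had 67.7 and 60.9 CPM with CDH3-AS1 siRNA, against 106 and 77.6 CPM with control siRNA. It was the one member whose groups did not overlap, with both CDH3-AS1 siRNA libraries below both controls, as in 16.1% of all tested genes. The log2 fold change was -0.47 (SE 0.33) without the block and -0.46 (SE 0.28, adjusted p = 0.641 by edgeR) with it. It stayed below 0 in each of the 19 alternatives run, between -0.65 and -0.20.

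**Figure D2:**
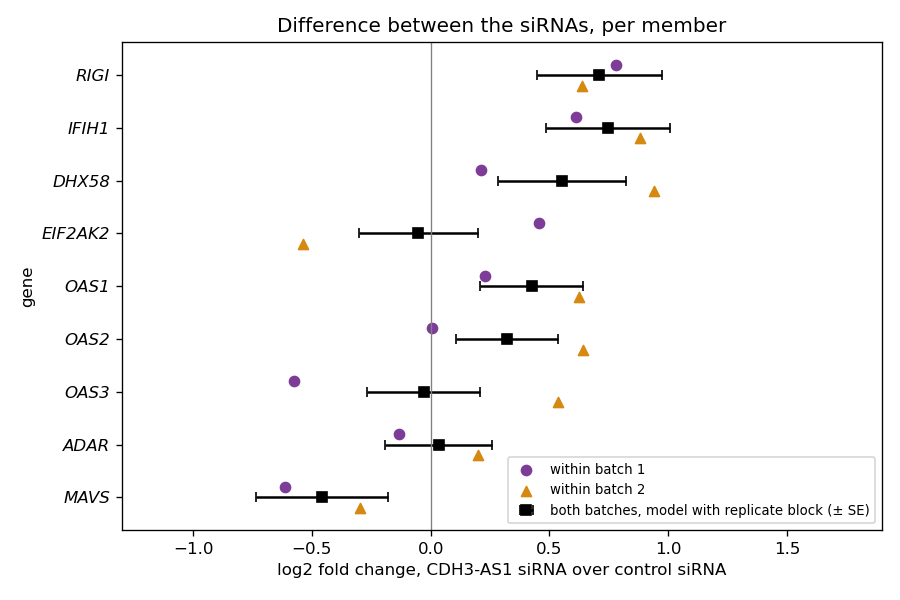
Log2 fold change of CDH3-AS1 siRNA over control siRNA for each gene, within batch 1 (circles), within batch 2 (triangles) and from the edgeR model with the replicate block (squares, bars of 1 SE). RIGI and IFIH1 lie between 0.61 and 0.88 in both batches, and EIF2AK2, OAS3 and ADAR lie on opposite sides of 0 in the batches.

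The kinase PKR differed between the batches in direction. EIF2AK2 (chromosome 2, 37099210 to 37156980) had 174 and 259 CPM with CDH3-AS1 siRNA and 129.7 and 389.7 CPM with control siRNA. The CDH3-AS1 siRNA libraries lay between the controls, so that the log2 fold change was 0.46 within batch 1 and -0.54 within batch 2. With the block it was -0.05 (SE 0.25, adjusted p = 0.985 by edgeR). Whether the effect differed between the batches was not tested, since each batch held 1 library per siRNA. Without control replicate 2 the value was 0.80, and without control replicate 1 it was -0.78.

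The 3 OAS genes lie side by side on chromosome 12, OAS1 at 112906962 to 112933219, OAS3 at 112938474 to 112973251 and OAS2 at 112978519 to 113011723. They are related in sequence, so reads that fit more than 1 of them are uncertain. OAS1 had 1399.9 and 646 CPM with CDH3-AS1 siRNA and 1222 and 434 CPM with control siRNA. OAS2 had 1337 and 745 CPM with CDH3-AS1 siRNA and 1364 and 495 CPM with control siRNA. In both genes the groups overlapped, and batch 1 libraries of either siRNA exceeded batch 2 libraries of either siRNA. OAS3 had 691 and 210.4 CPM with CDH3-AS1 siRNA and 1055 and 150.0 CPM with control siRNA, lower than the control in batch 1 and higher in batch 2.

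With the block the log2 fold changes were 0.43 (SE 0.22) for OAS1, 0.32 (SE 0.22) for OAS2 and -0.03 (SE 0.24) for OAS3, with adjusted p of 0.511, 0.714 and 0.990 by edgeR. OAS2 stood at 0.00 (log2) within batch 1 and 0.64 within batch 2. Leaving out CDH3-AS1 siRNA replicate 1 gave -0.29 for OAS1, -0.25 for OAS2 and -1.44 for OAS3, and leaving out control replicate 1 gave 1.30, 1.13 and 1.65. With CDH3-AS1 siRNA replicate 2 left out they stood at 0.79, 0.56 and 0.24, and with control replicate 2 left out at -0.19, -0.33 and -1.16. None of the 3 kept its sign over these fits, which had no block and unbalance the batches. Within batches 1 and 2 OAS1 stood at 0.23 and 0.62, and OAS3 at -0.58 and 0.54.

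ADAR (chromosome 1, 154582057 to 154627997), the editing enzyme, had 730.1 and 518 CPM with CDH3-AS1 siRNA and 819 and 467 CPM with control siRNA. Its log2 fold change was 0.03 (SE 0.22, adjusted p = 0.990 by edgeR) with the block and -0.00 without it. The within-batch values, -0.13 and 0.20, were the smallest pair of the 9 genes in sum of sizes.

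The batches were then compared, a test chosen after the data were seen. In 7 of 9 members the level differed more between the batches than between the siRNAs, a count that was not made over all genes. In batch 2 against batch 1, edgeR with the siRNA in the model called 6 members lower (OAS3, DHX58, OAS1, OAS2, RIGI and ADAR) and 1 higher (EIF2AK2). Of all genes 6.3% were called lower, 9.52% higher and 15.8% either way. The median difference was -1.10 (log2) over the members and 0.01 over all tested genes. OAS3 fell by 2.24 (SE 0.24, adjusted p = 1.23e-17, edgeR), DHX58 by 2.17 (SE 0.28, adjusted p = 1.73e-12) and OAS1 by 1.28 (SE 0.22, adjusted p = 4.18e-07). OAS2 fell by 1.13 (SE 0.22) and RIGI by 1.10 (SE 0.26), and ADAR fell by 0.62 (SE 0.22, adjusted p = 0.0387), a call that DESeq2 did not make (adjusted p = 0.0957). EIF2AK2 rose by 1.10 (SE 0.25, adjusted p = 2.99e-04, edgeR). IFIH1 stood at -0.68 (adjusted p = 0.0575, edgeR) and MAVS at -0.28 (adjusted p = 0.563).

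Each siRNA showed the same order of batches. Of the members 8 were lower in batch 2 with CDH3-AS1 siRNA and with control siRNA alike. The difference was larger between the controls than between the CDH3-AS1 siRNA libraries in 8 of 9, RIGI being the exception. Neither count was made over all genes, so neither can be called particular to the members. OAS3 differed by -1.68 with CDH3-AS1 siRNA and by -2.79 with control siRNA, DHX58 by -1.81 and -2.54, and EIF2AK2 by 0.61 and 1.60. In edgeR fits with no siRNA term, 5 members were called with all 4 libraries, beside 5.14% of all genes, and 5 when CDH3-AS1 siRNA replicate 1 was left out, beside 12.3%. Leaving out CDH3-AS1 siRNA replicate 2 gave 2 members, beside 1.09% of genes, and leaving out control replicate 1 gave 3, beside 2.63%. Leaving out control replicate 2 gave 0 members, beside 0.279% of genes. The labels give only the batch number, and culture and preparation cannot be told apart within it. Batch 1 held both the deepest and the shallowest library, and the part of depth in the batch difference was not tested.

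**Figure D3:**
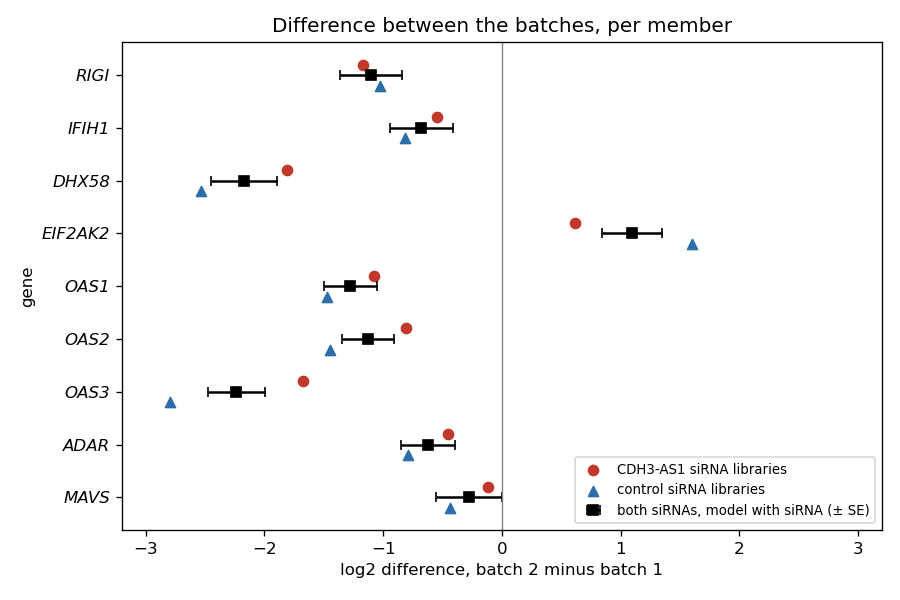
Log2 difference of batch 2 minus batch 1 for each gene, within the CDH3-AS1 siRNA libraries (circles), within the control libraries (triangles) and from the edgeR model with the siRNA (squares, bars of 1 SE). The other 8 genes lie below 0 with both siRNAs and EIF2AK2 lies above 0, at 0.61 and 1.60.

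Levels between genes were compared per length, as reads per kilobase of the longest coding sequence listed for the gene and per 1000000 reads of the library. OAS1 was highest in all 4 libraries, with 697 ± 347 (SD, n = 4 libraries), followed by OAS2 with 421 ± 185. OAS1 exceeded OAS2, and OAS2 exceeded ADAR, in 4 of 4 libraries. ADAR (160 ± 41.2), OAS3 (143 ± 114) and EIF2AK2 (133 ± 65.5) did not differ beyond their spread, ADAR exceeding OAS3 and OAS3 exceeding EIF2AK2 in 2 of 4 libraries each. EIF2AK2 exceeded DHX58 in 3 of 4. DHX58 (51.1 ± 38.0), RIGI (44.7 ± 24.3), MAVS (44.4 ± 10.9) and IFIH1 (38.8 ± 14.9) formed the low end, again with no order that held in all libraries. The lowest gene was MAVS in CDH3-AS1 siRNA replicate 1, IFIH1 in control replicate 1 and DHX58 in both libraries of batch 2. When the deposited RPKM were summed over transcripts in place of this, OAS1 and OAS2 kept the first places and IFIH1 the last, and OAS3 came before ADAR.

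Where the footprints lay within a gene also differed among the members. IFIH1 had a high share of reads in its 5′ UTR, the leader before the coding sequence, where footprints mark ribosomes upstream of the start codon. Shares were not scaled by length, and a longer leader can hold more reads. The IFIH1 transcript with most coding reads has a leader of 377 bases and a coding sequence of 3078. The 5′ UTR held 14.3% (95% Clopper-Pearson interval 12.5 to 16.2) and 15.7% (12.3 to 19.7) of its 5′ UTR and coding reads with CDH3-AS1 siRNA, and 15.2% (11.2 to 19.9) and 7.39% (5.11 to 10.3) with control siRNA. Control replicate 2 was low, with an interval below those of the other 3 libraries, and the share of whole libraries in the same order was 3.90%, 7.21%, 6.19% and 5.13%. The IFIH1 share was thus above that of the whole library in 3 libraries by more than counting error, and in control replicate 2 the interval held the library's value. These intervals cover counting error only.

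RIGI, its partner, had 2, 0, 0 and 0 reads in the 5′ UTR in that order of libraries, beside 1472, 261, 254 and 374 coding reads. The RIGI transcript with most coding reads has a leader of 576 bases, and its other transcripts with reads have leaders of 30 bases. A count of 0 in control replicate 2 has an upper limit of 0.981% of the share by the same interval. OAS1 lay at 0.530% or less in every library, and the leader of its transcript with most coding reads over all libraries is 78 bases. ADAR had 1.82% and 7.39% with CDH3-AS1 siRNA and 2.52% and 3.38% with control siRNA, so CDH3-AS1 siRNA replicate 2 was the high library. The ADAR transcript with most coding reads had 0 leader reads in every library, so the leader reads lay on its other listed transcripts. MAVS, whose mRNA is known to be translated from more than one start codon, had 1.83% and 1.24% with CDH3-AS1 siRNA and 7.98% (4.72 to 12.5) and 0.682% with control siRNA, the high value resting on 17 reads.

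**Figure D4:**
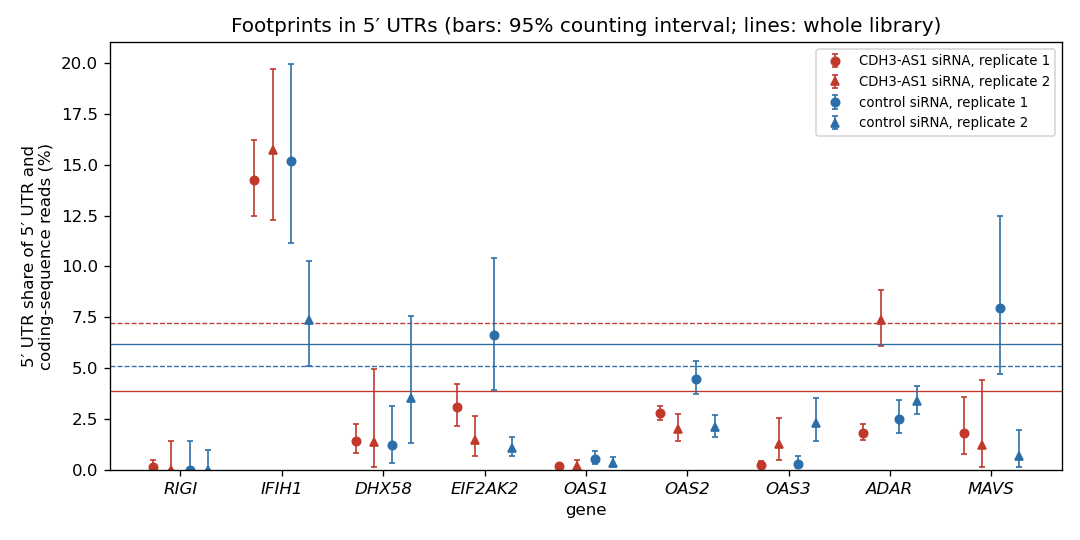
Share of 5′ UTR reads among 5′ UTR and coding-sequence reads of each gene, in percent, with CDH3-AS1 siRNA in red left of control siRNA in blue, circles for replicate 1, triangles for replicate 2, bars for the 95% counting interval and horizontal lines for the whole libraries (solid for replicate 1, dashed for replicate 2). IFIH1 lies between 7.39% and 15.7%, while RIGI and OAS1 lie at 0.530% or less in all libraries.

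Reads of a gene were spread over its listed transcripts, and this spread moved with the batch in some members. In RIGI a transcript with a coding sequence of 231 bases took 16.8% and 4.60% of coding reads with CDH3-AS1 siRNA, and 24.4% and 3.74% with control siRNA, so batch 1 was high with both. One EIF2AK2 transcript (1485 bases of coding sequence) took 15.0% and 5.91% with CDH3-AS1 siRNA and 22.6% and 4.06% with control siRNA, again higher in batch 1. An OAS1 transcript of 1203 coding bases took 16.3% and 13.2% with CDH3-AS1 siRNA and 31.2% and 12.3% with control siRNA, and control replicate 1 was the high library. The shorter MAVS coding sequence, of 1200 bases, took 70.0% and 63.5% with CDH3-AS1 siRNA and 60.2% and 56.3% with control siRNA, higher with CDH3-AS1 siRNA in each batch, with counting intervals that overlapped in each. How shared reads were assigned to transcripts is not given in the sources used here, so these shares describe the tables and not isoform levels.

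Other genes of the pathway were counted from lists. Of 22 tested genes of RIG-I-like receptor signalling, which include the kinase TBK1, the factor IRF3 and the ubiquitin ligase TRIM25, 0 passed in either direction with or without the block, and the median log2 fold change was 0.09 with the block. The smallest p without the block there was that of IRF7, a transcription factor that amplifies interferon production. IRF7 had 8.35 and 8.05 CPM with CDH3-AS1 siRNA and 2.17 and 3.55 CPM with control siRNA, the 2.17 CPM resting on 4 reads. Its log2 fold change was 1.36 (SE 0.55) without the block. With the block it was 1.39 (SE 0.60, adjusted p = 0.33 by edgeR). Of 11 genes around PKR and eIF2α 0 passed, with a median of 0.17 with the block. EIF2AK4, which encodes the eIF2α kinase GCN2, had the smallest p, at 0.30 (SE 0.37) without the block.

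OASL rose with the block. It encodes an OAS-like protein that lacks synthetase activity and enhances RIG-I signalling. OASL had 410.3 and 65.5 CPM with CDH3-AS1 siRNA and 208 and 16.9 CPM with control siRNA, higher in each batch and 1.45 (log2, SE 0.27, adjusted p = 2.14e-05 by edgeR) with the block. Without the block it was 1.13 and did not pass, and leaving out 1 library gave -0.69 (CDH3-AS1 siRNA replicate 1), 1.91 (CDH3-AS1 siRNA replicate 2), 3.85 (control replicate 1) or 0.26 (control replicate 2). These fits had no block, and within batches 1 and 2 OASL stood at 1.01 and 1.98.

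TLR3 also rose with the block, as 1 of 24 tested genes of other double-stranded RNA binding proteins and helicases, where 0 were lower and the median was 0.06. TLR3 is the receptor of double-stranded RNA in endosomes, the compartment through which transfected RNA can pass. It had 152 and 63.2 CPM with CDH3-AS1 siRNA and 54.8 and 27.9 CPM with control siRNA, both CDH3-AS1 siRNA libraries above both controls, as in 11.2% of all tested genes. The log2 fold change was 1.43 (SE 0.53) without the block and 1.36 (SE 0.29, adjusted p = 5.57e-04 by edgeR) with it. With 1 library left out it ran from 0.68 (CDH3-AS1 siRNA replicate 1) to 2.00 (control replicate 1). The call with the block was lost in limma on log2(RPKM + 1), at 1.08 (adjusted p = 0.118). TICAM1, the adaptor of TLR3, picked for its role after its values were seen, stood at 0.44 (SE 0.27, adjusted p = 0.637 by edgeR with the block). OASL and TLR3 compare with 0.927% of all genes called higher with the block.

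Of the interferon genes searched for, only IFNB1 had an entry in the deposited data, at the limit of detection. IFNB1 had 9 and 2 reads with CDH3-AS1 siRNA and 3 and 0 with control siRNA. CXCL10, a chemokine induced downstream of the sensors, had 6 and 2 against 0 and 0. CXCL11 had 6 and 1 against 2 and 0, and IL6 had 9 and 4 against 1 and 0. None of these passed the filter for testing. Of the 16 interferon and cytokine genes searched for, 3 were tested, CXCL8, TNFAIP3 and NFKBIA. With the block the log2 fold change was 0.42 (SE 0.31) for TNFAIP3 and -0.00 (SE 0.71) for NFKBIA. The 9 without an entry were IFNA1, IFNA2, IFNL1, IFNL2, IFNL3, IFNE, IFNK, CCL5 and TNF. CXCL8 had 227 and 100.4 CPM with CDH3-AS1 siRNA and 101 and 76.8 CPM with control siRNA (adjusted p = 0.0934 by edgeR with the block, and 0.00284 from the highest transcript with the block). The log2 fold change of CXCL8 was 0.92 with all libraries. With 1 library left out it ran from 0.24 (CDH3-AS1 siRNA replicate 1) to 1.38 (CDH3-AS1 siRNA replicate 2), and was 1.16 without control replicate 1. Among interferon-stimulated comparison genes 9 of 26 were called higher with the block and 0 lower: IFI6, IFIT1, IFIT2, IFIT3, IFI44L, RSAD2, XAF1, GBP1 and TRIM22. Of all genes 0.927% were called higher with the block and 0.697% lower. GBP1, a GTPase of antimicrobial defence, rose by 1.62 (log2, adjusted p = 3.29e-05, edgeR with the block) and RSAD2, the antiviral enzyme viperin, by 1.53 (adjusted p = 2.14e-05). IFI6, a membrane protein induced by interferon, rose by 1.02 (adjusted p = 5.81e-06). None of the 26 passed without the block. With DESeq2 and the block 5 passed, beside 0.544% of all genes, the calls of IFIT1, IFI44L, XAF1 and TRIM22 being lost. With limma and the block 4 passed, beside 0.86% of all genes, the calls of IFIT1, IFIT3, IFI6 (adjusted p = 0.30), IFI44L and TRIM22 being lost. With 1 library left out, GBP1 ran from 0.33 (CDH3-AS1 siRNA replicate 1) to 3.33 (control replicate 1), IFIT3 from 0.13 to 2.02 (the same libraries) and IFIT1 from 0.20 to 1.44 (likewise), while IFI44L ran from 0.18 (control replicate 2) to 1.78 (control replicate 1) and IFI6 from 0.64 to 1.45 (likewise). Leaving out CDH3-AS1 siRNA replicate 1 turned IFIT2 (-0.12), RSAD2 (-0.92) and TRIM22 (-0.32) below 0, and leaving out control replicate 2 turned XAF1 (-0.07). These fits had no block and unbalance the batches, so their values also hold the batch difference. Within batches 1 and 2 the fold changes were 1.42 and 1.21 for IFIT2 and 1.24 and 1.92 for RSAD2. They were 0.62 and 1.60 for TRIM22 and 0.37 and 2.41 for XAF1. The median of the list without each library lay between 0.08 (CDH3-AS1 siRNA replicate 1) and 1.44 (control replicate 1). Their list had a median of 0.73 with the block, beside 0.32 for the sensors. In batch 2, 20 of the 26 were also called lower, beside 6.3% of all genes. The difference between these lists was not tested.

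**Figure D5:**
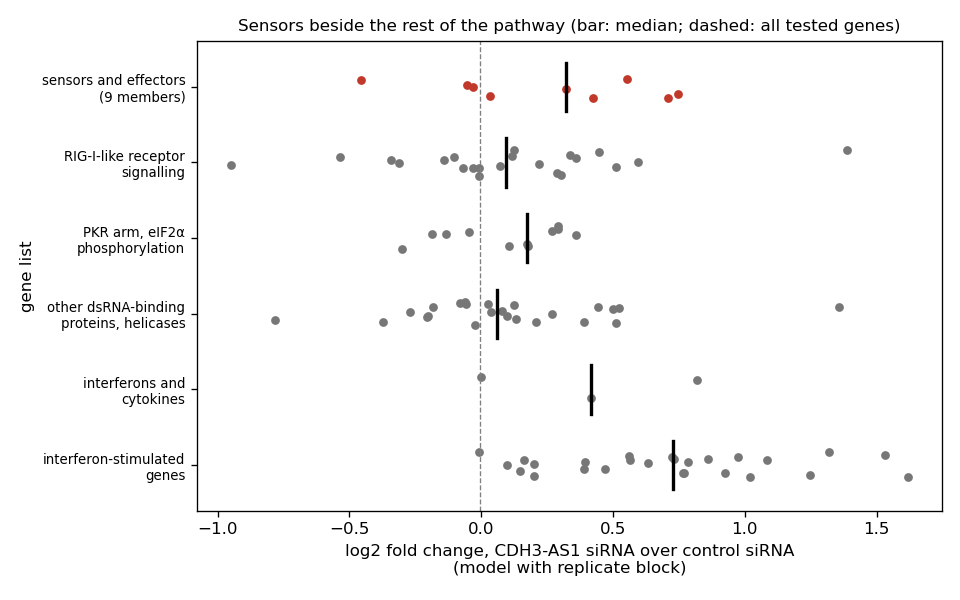
Log2 fold change of CDH3-AS1 siRNA over control siRNA from the edgeR model with the replicate block, 1 point per tested gene, for the 9 sensors and effectors (red, top) and 5 lists of the pathway, with a black bar at each median and a dashed line at the median of all tested genes. The sensors lie between -0.46 and 0.75, and the interferon-stimulated genes at the bottom have a median of 0.73.

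The genes closest in pattern to the mean of the 9 members over the 4 libraries, among 9222 tested genes whose mean RPKM was 5 or more, were OTUD7B, GNA11, SLC26A6, ZNF687 and SRGAP2. Their centred log2 CPM differed from the members' mean by a root mean square of 0.037 to 0.046. Among the members OAS2 was nearest the mean, at 0.13, and EIF2AK2 farthest, at 1.08. With 4 libraries and so many candidates, closeness of this kind describes only the shared order of the libraries.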

How the data were processed

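The authors deposited, per the file headers, whole-number counts of reads per transcript in the 5′ UTR, coding sequence and 3′ UTR, with RPKM for each region. Checked on the values, the deposited coding-sequence RPKM equal the count per kilobase of coding sequence and per 1000000 reads of the library over all regions, to within rounding at 2 decimals. Per the file headers, further columns hold the region lengths. The submitters' processing notes name hg38 and DESeq2, while aligner, counting tool and strandedness were not given in the sources used here.

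Coding-sequence counts were summed by gene name, filtered with filterByExpr (minimum count 10, minimum total 15) and tested with edgeR 4.0.16 (TMM, quasi-likelihood, prior count 2, Benjamini-Hochberg over all 10469 tested genes) in R 4.3.3, after a check on simulated counts. SE is the size of the log2 fold change divided by the root of F. Same-numbered libraries share a batch in the labels, and across the tested genes they deviated together from their group means (r = 0.584), which is why the model with the replicate block is given beside the results. It leaves 1 residual degree of freedom, against 2 without it. Alternatives used DESeq2 1.42.0, limma 3.58.1 on log2(RPKM + 1) or log2(RPKM + 0.1), other filters, no TMM, the highest transcript, all regions, and each library left out. Replicates differed by more than sampling noise (chi-square per degree of freedom 36.4 with CDH3-AS1 siRNA and 44.0 with control siRNA). The members and lists were chosen with earlier results of these data known. Named from the lists were genes called with either model, otherwise the gene of smallest p, and the 5 genes closest to the members' mean profile. TICAM1 and further genes of the interferon and cytokine list are given outside this rule.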

Additional observations from a re-analysis of the deposited data

How the results depend on the processing

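No member passed the siRNA comparison under any of the 19 alternatives, among them DESeq2 with and without the block. The count over all genes was 0 in edgeR without the block, 170 with the replicate block, 2 with DESeq2, 57 with DESeq2 and the block, 52 with no filter on low counts, and 73 without control replicate 2 (0 in the other fits that left out a library). Combined with the block after seeing the data, no filter gave 227, the highest transcript 149, no TMM 167, at least 50 reads in each library 127 and limma on log2(RPKM + 1) 90. The members' median log2 fold change ranged from -0.33 to 1.22 with 1 library left out. It was 0.16 to 0.33 otherwise.

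ADAR, at -0.00, took a positive sign with the replicate block (0.0336), DESeq2 (0.0109, and 0.0459 with the block), no filter (0.0087, and 0.0358 with the block), at least 50 reads (0.0089, and 0.0347 with the block), limma (0.0014 with pseudocount 1, with or without the block, and 0.0015 with 0.1), the highest transcript (0.0862, and 0.0975 with the block) and all regions (0.0274). Leaving out libraries gave ADAR -0.33 to 0.48, DHX58 -0.81 to 2.16, EIF2AK2 -0.78 to 0.80, OAS1 -0.29 to 1.30, OAS2 -0.33 to 1.13 and OAS3 -1.44 to 1.65. It gave OASL -0.69 to 3.85, IFIT2 -0.12 to 2.76, RSAD2 -0.92 to 4.23, XAF1 -0.0679 to 3.21, TRIM22 -0.32 to 2.78 and EIF2AK4 -0.0088 to 0.63. RIGI, IFIH1 and MAVS kept their sign in all 19 alternatives.

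Between the batches the count of members called ranged from 0 to 5 with 1 library left out, and the median from -1.44 to -0.68, with -0.73 for the highest transcript with the block. ADAR lost its call with DESeq2, limma, the highest transcript, no filter and no siRNA term, and RIGI with the highest transcript (adjusted p = 0.0531) and no siRNA term (adjusted p = 0.069, edgeR). MAVS ranged from -0.56 to 0.0156. Leaving out 1 library unbalances the batches by construction, and other causes were not tested.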
